A study of Mus musculus with 16 samples.

Results

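The proteasome genes measured here were the rows of the count table whose symbol begins with Psma, Psmb, Psmc, Psmd, Psme, Psmf or Psmg followed by a digit, without the inducible subunits Psmb8 and Psmb9. This rule used names alone and found 39 genes among the 7946 listed. They comprised 6 genes of the 20S alpha ring, 8 of the 20S beta ring, 9 of the 19S base, 5 of the 19S lid, 5 activators and inhibitors and 6 assembly chaperones. The set is therefore broader than constitutive subunits: it holds the chaperones and activators, and also Psmb10, an inducible immunoproteasome subunit, and Psme1 and Psme2, the interferon-inducible activator. Of the 39 genes, 34 reached the minimum of 30 unique molecular identifiers (UMIs, tags that count each captured mRNA once) over all libraries and were tested. Psma1, Psma3, Psmc6, Psmd5 and Psmf1 did not reach it. Psma4, Psma8, Psmb11, Psmd6, Psmd9, Psmd12, Psmd14 and Psme4 were not analysed here.

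The study measured mRNA of alveolar macrophages, the resident phagocytes of the airspace, from lungs of C57BL6 mice with chronic airway exposure to lipopolysaccharide (LPS), a bacterial outer membrane component. Fixed cells were sorted by surface markers and by intracellular staining for p16, a cyclin-dependent kinase inhibitor used as a marker of senescence, and sequenced from the 3′ end of polyadenylated RNA. All 4 groups had 4 libraries of 5000 sorted cells each. They were p16-positive and p16-negative cells from mice that inhaled an aerosol of LPS at 0.5 mg/ml in phosphate-buffered saline (PBS), and p16-positive and p16-negative cells from mice that inhaled PBS alone, in both cases for 30 min, 3 times a week over 10 weeks. The labels call the 4 libraries of a group biological replicates. They do not say how many mice gave the cells of a library, and samples were pooled for library preparation. The labels give no age for the mice. The mice carried no engineered allele according to the labels, and p16-negative means low or no stain in the sort, not a knockout. The question put to the proteasome genes was whether their mRNA differed between p16-positive and p16-negative cells, or between LPS and PBS lungs.

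Library totals ran from 13861 to 1176358 UMIs, and both PBS replicate 1 libraries lay at the low end with 13861 in p16-positive and 15755 in p16-negative cells. The genes of the surface markers used in the sort were detected in most libraries, Siglecf in 14, Itgax in 15 and Ptprc in 14 of 16. Other transcripts of alveolar macrophages were present: Marco, Chil3, Fabp4, Car4 and Krt79 had UMIs in all 16 libraries, and the 16 alveolar macrophage markers together made up 0.255% to 0.896% of the UMIs of a library. Transcripts of other lung cells were present as well. All 8 secretory airway markers were detected and together took 0.0423% to 26.7% of a library, with the highest values in PBS p16-positive replicate 1 (26.7%) and PBS p16-negative replicate 1 (17.7%), and the 8 alveolar type II markers took 0.126% to 4.96%. The proteasome is present in every cell type, and in bulk samples fewer cells of a type and less RNA per cell cannot be told apart.

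The 26S proteasome degrades proteins tagged with ubiquitin and so sets the lifetime of regulatory proteins. Its 20S core is a barrel of beta rings flanked by alpha rings, which gate the entry. Of the beta ring, Psmb5, Psmb6 and Psmb7 carry the proteolytic sites. The 19S cap has a base, whose ATPases (the Psmc genes) unfold the substrate, and a lid, which takes part in removing ubiquitin. Interferons and inflammation replace the catalytic subunits by Psmb8, Psmb9 and Psmb10 and raise the activator made of Psme1 and Psme2, which favours peptides for antigen presentation. Macrophages use this form in presenting antigens on MHC class I molecules.

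Levels are given as CPM, the UMIs of a gene per 1000000 UMIs of all listed genes in a library. They are counts of 3′ ends and were not divided by gene length. All 39 genes together took 25836 of 3734815 UMIs, or 0.692%. The levels were uneven: Psmd4, the ubiquitin receptor of the 19S base (3496 UMIs over all libraries), Psmd13 of the lid (3406) and Psmb10 (2867) carried 37.8% of the member UMIs, and the 10 highest members carried 73.9%. The gene with fewest UMIs was Psma3 of the alpha ring, with 14 in all. By mean level, 22 of the 39 ranked in the upper part of the 7946 genes when these are split at the midpoint, with Psmd13 at rank 130, Psmd4 at rank 132 and Psmb10 at rank 198. Members of a ring or cap, which are present in equal numbers in the assembled particle, thus differed widely in 3′ UMI counts.

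**Figure D1:**
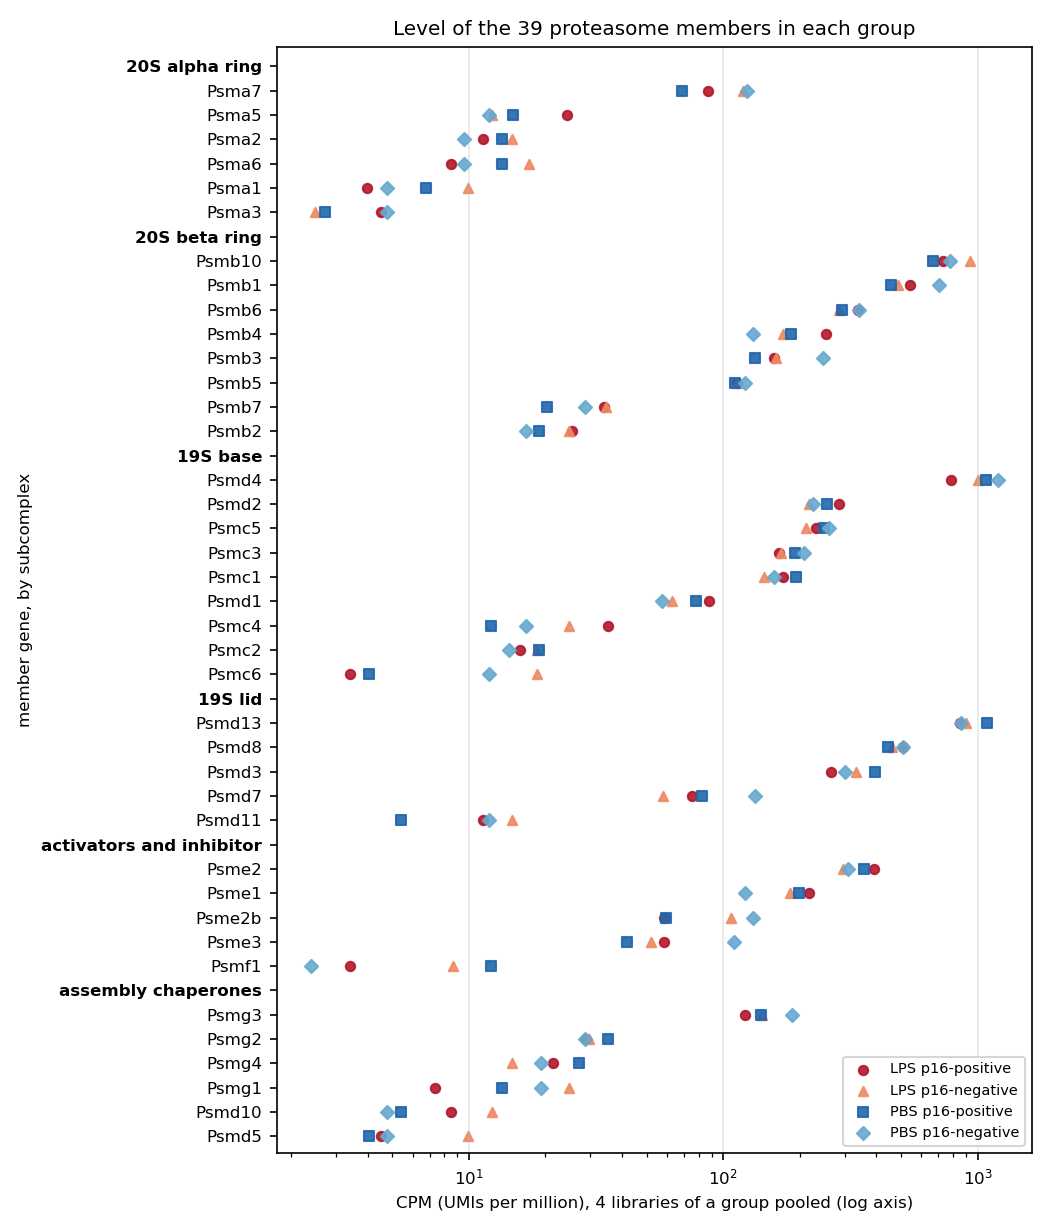
Level of each of the 39 members, in CPM on a log axis, with the UMIs of the 4 libraries of a group pooled and members sorted by subcomplex (LPS p16-positive circles, LPS p16-negative triangles, PBS p16-positive squares, PBS p16-negative diamonds). Most alpha ring and chaperone genes lie low, while Psmd4, Psmd13 and Psmb10 lie highest in all 4 groups, and the symbols of a gene lie closer together for abundant members than for rare ones.

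Psmd4 reached 1399, 933, 1163 and 615 CPM in LPS p16-positive libraries and 1575, 1022, 1622 and 592 in LPS p16-negative libraries. In PBS libraries it reached 216, 1071, 1452 and 943 in p16-positive and 635, 1315, 1389 and 1110 in p16-negative cells. All groups overlapped, and the lowest value came from the shallowest library, PBS p16-positive replicate 1, where it rests on 3 UMIs. The steadiest member was Psmc5, an ATPase of the base, with a coefficient of variation of 19.9% over the 16 libraries and a range of 150 to 317 CPM. In comparison, Psmd4 varied by 37.3%, Psmd13 by 29.0% and Psmb10 by 25.8%. The order of the 39 members by pooled level was much alike in all groups, with Spearman coefficients between 0.956 and 0.972 for the 6 pairs of groups (across genes, which are not independent replicates).

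Added over all 39 members, the libraries had 7807, 6634, 6377 and 6669 CPM in LPS p16-positive and 7538, 7173, 6529 and 6826 in LPS p16-negative cells. The PBS libraries had 4257, 6176, 7607 and 7006 in p16-positive and 5395, 7219, 7635 and 7561 in p16-negative cells. The means were 6872 ± 637 in LPS p16-positive, 7016 ± 436 in LPS p16-negative, 6261 ± 1460 in PBS p16-positive and 6953 ± 1054 in PBS p16-negative libraries (SD, n = 4 each), and the groups overlapped. The lowest sums, 4257 and 5395, came from both PBS replicate 1 libraries, which had 59 and 85 member UMIs and the highest secretory airway share, whose part in these sums was not tested. At such a depth 22 and 21 of the 39 members had any UMI, against 29 to 39 in the other 14 libraries. A gene with no UMI in PBS p16-positive replicate 1 could have had up to 216 CPM, the level of 3 UMIs there, so zeros in this library say little. These limits cover counting error only.

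By subcomplex, the 20S beta ring added up to 2017 ± 326 CPM in LPS p16-positive, 2158 ± 296 in LPS p16-negative, 1751 ± 223 in PBS p16-positive and 2140 ± 507 in PBS p16-negative libraries. The 19S base added up to 1921 ± 213, 1987 ± 296, 1813 ± 630 and 1979 ± 443, and the 19S lid to 2009 ± 431, 1904 ± 327, 1824 ± 492 and 1801 ± 332, in the same order of groups (SD, n = 4). For these 3 subcomplexes the ranges of the p16-positive and p16-negative libraries overlapped under both treatments. The beta ring sum was lower in the p16-positive library in 4 of 4 same-numbered PBS pairs and 3 of 4 LPS pairs. The base sum was lower in 3 of 4 PBS and 2 of 4 LPS pairs, and the lid sum in 2 of 4 of each. The alpha ring, with 6 genes, had the smallest sum, at 130 ± 15.2, 172 ± 15.7, 151 ± 47.8 and 125 ± 62.3 in that order. In LPS lungs the alpha ring had 129, 136, 110 and 145 CPM in p16-positive against 178, 150, 174 and 187 in p16-negative libraries. These ranges did not overlap, and the p16-positive library was lower in all 4 same-numbered pairs. The sums rest on 23, 40, 13 and 171 UMIs in p16-positive and 18, 21, 29 and 75 in p16-negative libraries. Among all 6516 tested genes, 317 (4.86%) were lower in the p16-positive library of all 4 LPS pairs. How many genes had ranges without overlap was not counted. In LPS lungs the sums of activators, of chaperones and of all members overlapped between the fractions. The sum of all members was lower in the p16-positive library in 4 of 4 PBS pairs and 3 of 4 LPS pairs. In PBS lungs the alpha ring had 216, 142, 145 and 102 in p16-positive against 63.5, 98.7, 128 and 209.5 in p16-negative libraries, where the p16-positive library was lower in 1 of 4 pairs and the ranges overlapped. The sums were not tested. In the alpha ring, Psma7 gave most UMIs (354 over all libraries). Its tested genes went both ways within LPS lungs. Their fitted log2 differences, p16-positive over p16-negative, were 0.06 for Psma2, 0.66 for Psma5, -1.23 for Psma6 and -0.49 for Psma7.

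Proteasome genes are controlled together by the transcription factors Nfe2l1 and Nfe2l2, which bind antioxidant response elements, and many have ETS or NF-Y sites near their start. The 250 bases before the RefSeq start sites (GRCm38.p6) were searched on both strands for TGACNNNGC, the core of the antioxidant response element, CCGGAAG, an ETS motif, and CCAAT, the NF-Y box. Of the 39 members 32 were in the promoter table, with 35 start sites. The start sites behind the Psmb6 and Psmd2 windows printed below lie inside the gene spans, which begin at 70525324 and 20651122. The element core stood before 3 of them (9.38%, against 11.5% of all 27025 genes), CCAAT before 11 (34.4% against 37.5%) and CCGGAAG before 9 (28.1% against 7.83%). No matches of different motifs overlapped in a member promoter. These are matches of letters, not sites of binding, and no promoter activity was measured. The windows of catalytic Psmb5 and Psmb6 with the element core and those of Psmd4, the most abundant member, of Psmc1 and Psmd2 of the base and of the chaperone Psmg1 with the ETS motif are shown because these genes recur in the comparisons or stand for their cap. Each is printed on the strand of the gene, with the match in capitals and up to 10 flanking bases, and ends before the start site:
Psmb5, chr14:54618024-54618052, minus strand, match starting 47 bases before the start site: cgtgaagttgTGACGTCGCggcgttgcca
Psmb6, chr11:70525338-70525356, plus strand, match starting 9 bases before the start site: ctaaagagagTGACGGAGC
Psmd4, chr3:95042723-95042749, minus strand, match starting 125 bases before the start site: tacagctgttCCGGAAGctgctgcgaa
Psmc1, chr12:100110164-100110190, plus strand, match starting 28 bases before the start site, read from the other strand: ggtggatgcaCTTCCGGcggtggcgat
Psmd2, chr16:20651616-20651642, plus strand, match starting 26 bases before the start site, read from the other strand: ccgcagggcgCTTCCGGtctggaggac
Psmg1, chr16:95991013-95991039, minus strand, match starting 69 bases before the start site: tcgcggcggaCCGGAAGctcttaggtt

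For LPS against PBS, the model compared 8 libraries with 8 and adjusted for the p16 fraction. It treated all 16 libraries as independent, although same-numbered p16-positive and p16-negative libraries of a treatment were taken as paired in the replicate block. If they share mice, each side has fewer than 8 independent units. Standard errors and p-values may then be too small. No member passed an adjusted p of 0.05 by edgeR's quasi-likelihood test with Benjamini-Hochberg adjustment over all 6516 tested genes, of which 60 were called (0.921%). By unadjusted p below 0.05 there were 0 of 34 members with edgeR, 1 with DESeq2 (2.94%) and 1 with voom, and neither DESeq2 nor voom called any. Of all tested genes, 9.27%, 9.55% and 11.8% had such a p with the same tools. The members' shares were lower but rest on 0 or 1 gene each, and the difference was not tested. The fitted log2 fold changes of the members ran from -0.27 to 1.16 and 28 of 34 were positive. Their median was 0.21, against 0.14 for all tested genes, of which 61.0% were positive. This scale was set by trimmed means of the libraries, and with library totals alone the medians were -0.03 for the members, 14 of 34 being positive, and -0.08 for all genes, so the sign of the members' median followed the scaling while its distance from all genes was 0.07 and 0.05. The median shares of several marker lists of other cells were lower in LPS libraries. In p16-positive cells the median share of UMIs was 0.767% in LPS against 2.84% in PBS libraries for alveolar type II markers, 0.359% against 2.82% for secretory airway markers and 0.159% against 0.678% for endothelial markers. In p16-negative cells it was 0.325% against 0.690%, 0.216% against 0.904% and 0.0559% against 0.270% for the same lists. Their part in the member values was not tested.

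Psmb10 had the highest values of the catalytic members, at 935, 558, 716 and 742 CPM in LPS p16-positive and 971, 1000, 769 and 973 in LPS p16-negative cells, against 361, 687, 661 and 676 in PBS p16-positive and 381, 822, 810 and 785 in PBS p16-negative cells. It lies on chromosome 8 (105935728 to 105938392). LPS p16-negative values were high except for replicate 3, the lowest values were those of both PBS replicate 1 libraries, and LPS and PBS overlapped. The difference was 0.57 on the log2 scale (SE 0.32, 95% interval -0.07 to 1.21, adjusted p = 0.628 by edgeR) and did not pass the test. Without both PBS replicate 1 libraries the member calls stayed at 0.

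Psmc4, an ATPase of the 19S base on chromosome 7 (28041702 to 28050092), had few UMIs, 98 in all. Its levels were 16.8, 27.2, 25.3 and 40.8 CPM in LPS p16-positive and 9.90, 14.3, 6.01 and 39.8 in LPS p16-negative libraries. In PBS libraries they were 72.1, 0, 10.3 and 13.8 in p16-positive and 0, 0, 8.52 and 26.7 in p16-negative cells. The 72.1 is 1 UMI of the shallowest library. The difference between LPS and PBS was 1.03 (SE 0.57, interval -0.13 to 2.20, adjusted p = 0.628 by edgeR), so an increase of more than 4-fold lies inside the interval as does no difference. Psmd10 (gankyrin), a chaperone of base assembly on the X chromosome, gave 1.16 (SE 0.72, interval -0.31 to 2.62, adjusted p = 0.705) on 31 UMIs, 15 from LPS p16-positive, 10 from LPS p16-negative, 4 from PBS p16-positive and 2 from PBS p16-negative libraries. Psmd8, a lid subunit, gave 0.47 (interval -0.20 to 1.13, adjusted p = 0.747) on levels of 337 to 655 in LPS and 127 to 633 in PBS libraries.

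The catalytic Psmb5, which carries the chymotrypsin-like activity, had 72.8, 88.5, 101 and 128 CPM in LPS p16-positive, 79.2, 71.4, 60.1 and 159 in LPS p16-negative, 0, 111, 77.5 and 129 in PBS p16-positive and 63.5, 132, 102 and 134 in PBS p16-negative libraries. Its LPS difference of 0.08 (interval -0.61 to 0.77) had no fixed direction, being -0.13 with library totals alone and -0.09 without both PBS replicate 1 libraries. Psmb6, with caspase-like activity, gave 0.20 (interval -0.42 to 0.81), which was -0.04 with library totals alone. Its levels were 196, 296, 286 and 377 in LPS p16-positive, 248, 257, 258 and 316 in LPS p16-negative, 72.1, 233, 305 and 309 in PBS p16-positive and 190, 345, 358 and 343 in PBS p16-negative libraries, with overlap of all groups. Psmb7, with trypsin-like activity, was rare (115 UMIs) and gave 0.50 (interval -0.56 to 1.55). The activator genes Psme1 and Psme2 gave 0.27 (interval -0.48 to 1.01) and 0.11 (interval -0.78 to 0.99), and the value of Psme2 was -0.14 with library totals alone. None of these genes passed the test, the lowest adjusted p by edgeR being 0.871.

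**Figure D2:**
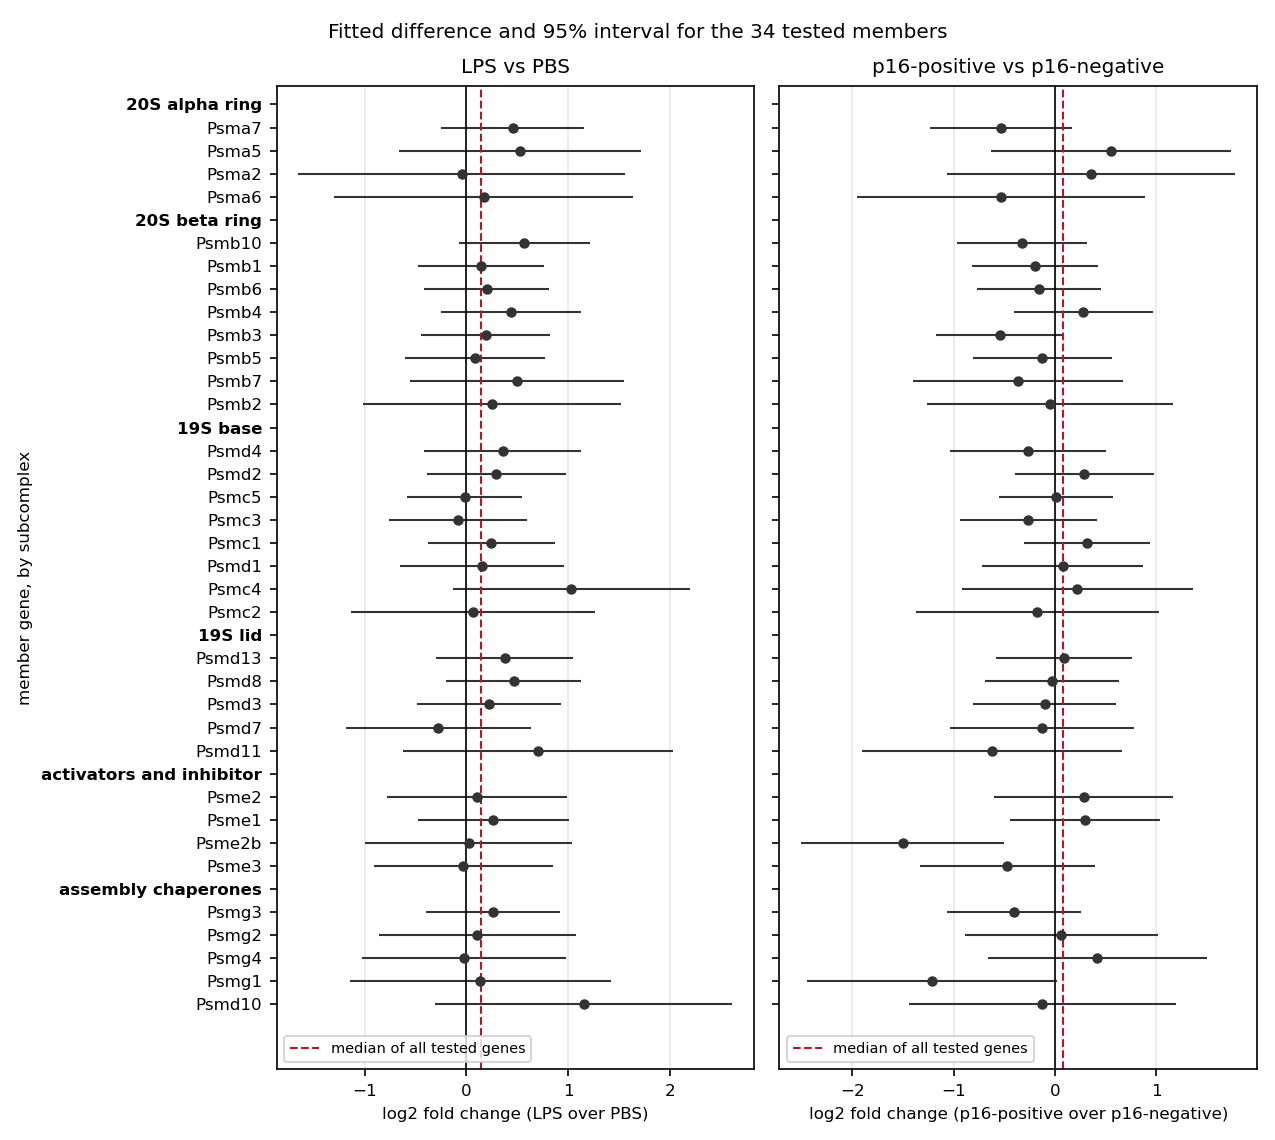
Fitted log2 fold change of the 34 tested members, sorted by subcomplex, with 95% intervals (points and lines), for LPS over PBS on the left and p16-positive over p16-negative on the right. The dashed line is the median of all 6516 tested genes, 0.14 on the left and 0.08 on the right. All intervals cross 0 on the left, and on the right only the interval of Psme2b does not.

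Across the 34 members, 13 of the 95% intervals for LPS against PBS lay entirely within 1 log2 unit of 0, and the other 21 reached a change of more than 2-fold in at least one direction. For 13 members the interval thus held no change of 2-fold or more, and for 21 it did. By subcomplex, positive fitted values were given by 3 of 4 alpha, 8 of 8 beta, 6 of 8 base and 4 of 5 lid genes, by 3 of 4 activators and by 4 of 5 chaperones, without a single call. These counts depend on the scaling. With library totals alone 14 of 34 members were positive, and Psmb5 and Psmb6 were negative. Of the beta genes, Psmb1, Psmb3, Psmb5 and Psmb6 were negative within p16-negative cells, and Psmb2 within p16-positive cells. Psmb8 and Psmb9, the inducible subunits outside the set, gave 0.89 (interval 0.22 to 1.56, adjusted p = 0.26 by edgeR) and 0.88 (interval 0.14 to 1.63, adjusted p = 0.388), also without passing. Of 33 tested genes of the wider system (proteasome genes with other names, regulators, ubiquitin, shuttle factors, ligase parts and the COP9 signalosome) 0 were called, 21 being positive and 12 negative, and 0 had an unadjusted p below 0.05 by edgeR.

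Within the p16-positive cells, LPS against PBS gave 0 member calls by edgeR, DESeq2 and voom, with 3 calls among all genes by edgeR (0.046%). There were 0, 0 and 1 members at an unadjusted p below 0.05 by these tools, against 6.15%, 4.79% and 9.55% of all genes. Within the p16-negative cells there were again 0 member calls by each tool, with 1 call among all genes by edgeR (0.0153%), and 0 members at an unadjusted p below 0.05 by each of them, against 4.39%, 3.34% and 5.72% of all genes. The member medians were 0.36 in p16-positive and 0.27 in p16-negative cells, against 0.19 and 0.10 for all genes. Psmb10 gave 0.54 (SE 0.47) in p16-positive and 0.60 (SE 0.47) in p16-negative cells. These 2 comparisons share no library, though their same-numbered libraries may share mice. The test of the difference, the interaction of LPS and p16, called 0 members by each tool, with 0 at an unadjusted p below 0.05 by each of them, and 0 genes in all by edgeR (0%), of which 1.55% had an unadjusted p below 0.05. The interaction of Psmb10 was -0.06 (interval -1.40 to 1.29).

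**Figure D3:**
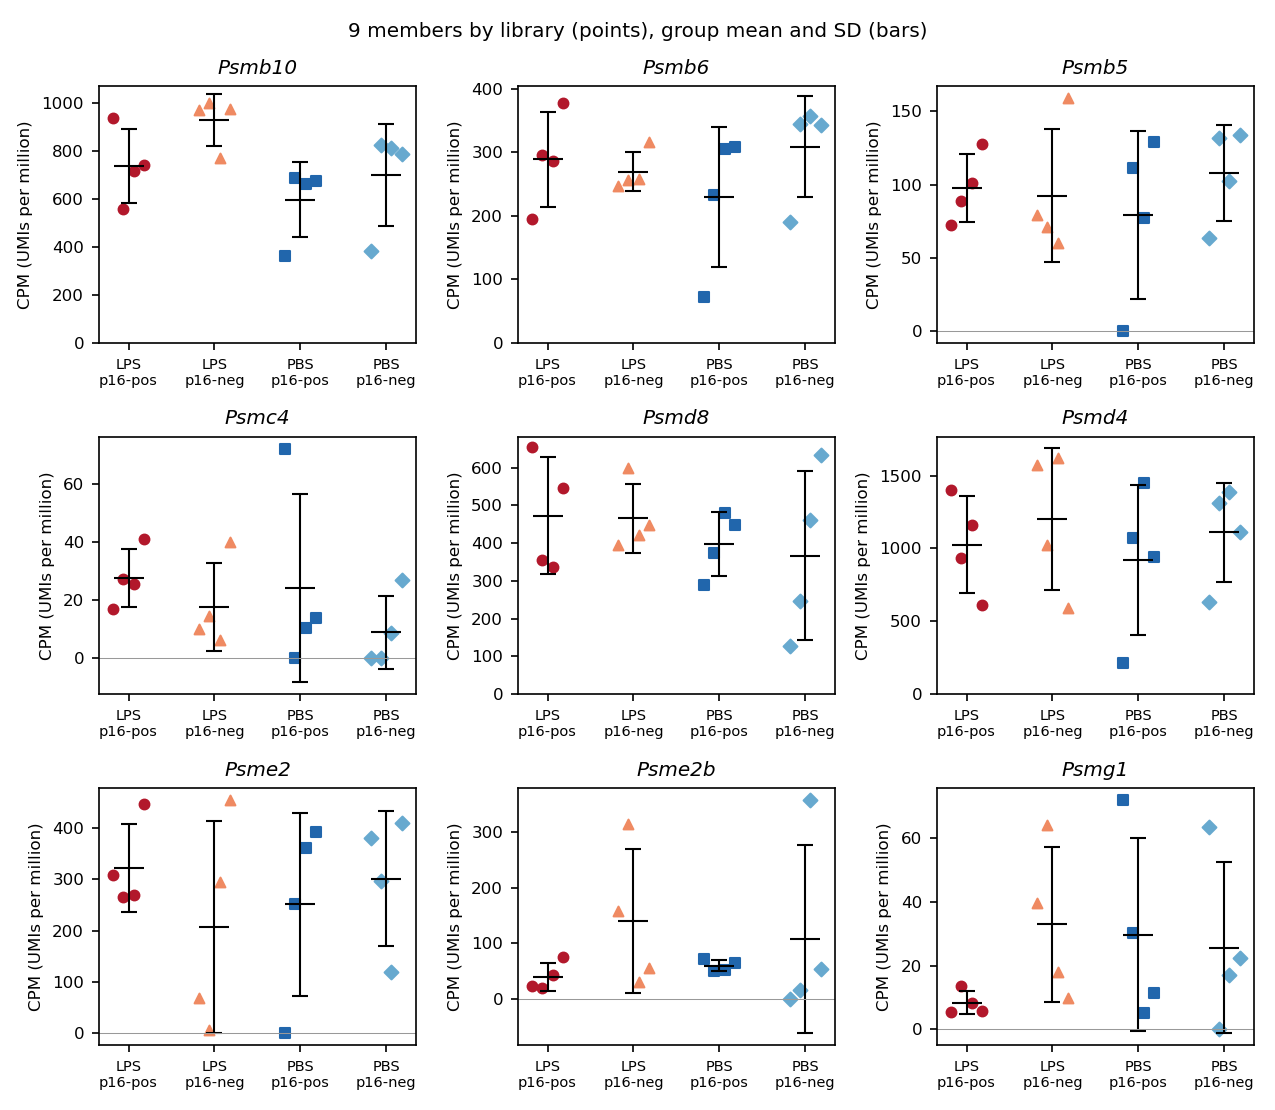
CPM in each library (points) for 9 members, with group mean and SD (bars, n = 4), in LPS p16-positive, LPS p16-negative, PBS p16-positive and PBS p16-negative cells from left to right. The low points of Psmb10, Psmb6 and Psmd4 in PBS are the shallow replicate 1 libraries, and the high points of Psme2b are p16-negative libraries.

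The inducible share of the catalytic subunits uses counts within a library and needs no scaling. Psmb8, Psmb9 and Psmb10 together made up 89.0%, 76.5%, 81.9% and 80.7% of the UMIs of the 6 catalytic genes in LPS p16-positive and 85.7%, 88.4%, 85.7% and 81.9% in LPS p16-negative libraries. In PBS libraries they made up 88.9%, 80.0%, 78.7% and 80.1% in p16-positive and 73.3%, 73.8%, 77.6% and 79.7% in p16-negative cells. Inducible subunits thus gave most catalytic UMIs in every library, though 3′ capture can differ between genes. This held for each library in the pair of Psmb10 and Psmb7, where Psmb10 gave 94.3% to 100%, and in that of Psmb8 and Psmb5, where Psmb8 gave 74.2% to 100%. It did not hold for Psmb9 and Psmb6. Psmb9 gave 73.5%, 52.5%, 50.0% and 60.4% of their UMIs in LPS p16-positive and 58.3%, 76.0%, 67.9% and 63.3% in LPS p16-negative libraries, against 0%, 50.0%, 48.2% and 59.6% in PBS p16-positive and 40.0%, 44.7%, 43.2% and 64.4% in PBS p16-negative libraries. Psmb9 was thus above 50% in 9 of 16 libraries, and the 0% and 40.0% rest on 1 and 5 UMIs. The means were 82.0% ± 5.17 in LPS p16-positive, 85.4% ± 2.70 in LPS p16-negative, 81.9% ± 4.70 in PBS p16-positive and 76.1% ± 3.08 in PBS p16-negative libraries (SD, n = 4). Among p16-negative cells the LPS values, from 81.9% up, lay above the PBS values, up to 79.7%, while among p16-positive cells they overlapped. The shares of secretory airway, alveolar type II and endothelial transcripts given above had lower medians in LPS than in PBS p16-negative libraries, and their part in the inducible share was not tested. The 88.9% of PBS p16-positive replicate 1 rests on 9 UMIs (exact Clopper-Pearson 95% interval 51.8% to 99.7%) and the 73.3% of PBS p16-negative replicate 1 on 15 (44.9% to 92.2%). No test was made of these shares, which were chosen with the values known.

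**Figure D4:**
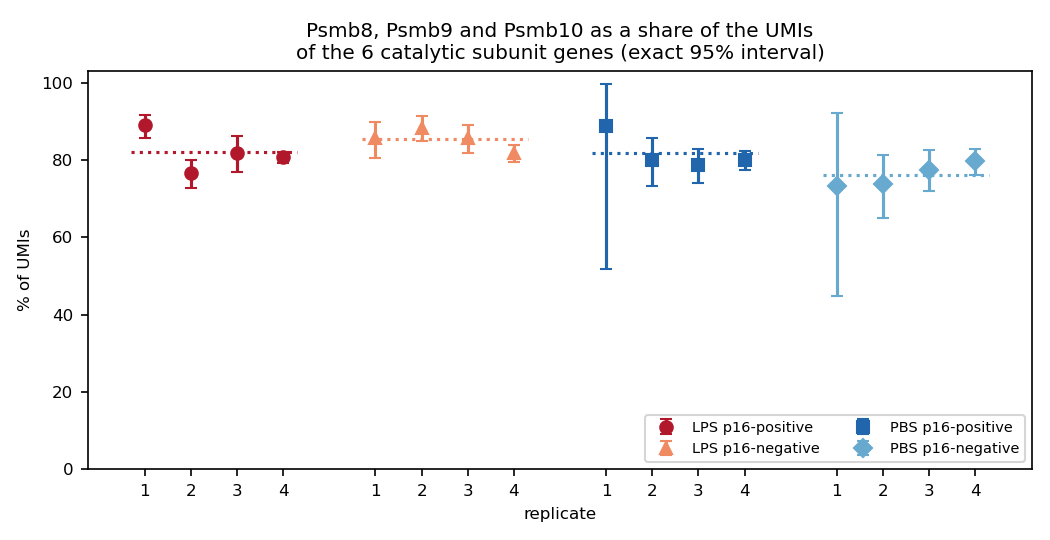
UMIs of Psmb8, Psmb9 and Psmb10 as a percentage of those of Psmb5 to Psmb10, by library, with exact 95% binomial intervals (bars) and group means (dotted lines). LPS p16-negative libraries lie between 81.9% and 88.4% and PBS p16-negative libraries between 73.3% and 79.7%.

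For p16-positive against p16-negative cells, adjusted for treatment, 0 of 34 members passed the same test, while 92 of all genes did (1.41%), all of them higher in p16-positive cells. With paired libraries as a replicate block, 357 genes and again 0 members were called. Unadjusted p-values were below 0.05 for 1 member with edgeR (2.94%), 3 with DESeq2 (8.82%) and 2 with voom (5.88%), and neither DESeq2 nor voom called any. Of all tested genes, 10.2%, 10.3% and 11.2% had such a p with these tools. The members' shares rest on 1 to 3 genes each, that by DESeq2 lay near the share of all genes, and no difference was tested. Fitted values ran from -1.50 to 0.55 with 13 of 34 positive. Their median was -0.12, against 0.08 for all genes, of which 56.9% were positive, and the distance between the medians was -0.21. Alveolar type II markers took a median of 2.84% of UMIs in PBS p16-positive against 0.690% in PBS p16-negative libraries, and endothelial markers 0.678% against 0.270%. In LPS lungs the medians were 0.767% in p16-positive against 0.325% in p16-negative libraries for alveolar type II and 0.159% against 0.0559% for endothelial markers. For secretory airway markers the medians, p16-positive first, were 2.82% against 0.904% in PBS and 0.359% against 0.216% in LPS lungs. For alveolar macrophage markers they were 0.440% against 0.761% in PBS and 0.696% against 0.698% in LPS lungs. The part of these shares in the member values was not tested.

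Psme2b had the lowest p. It is a gene on chromosome 11 (48945345 to 48946410), named as a copy of Psme2 on chromosome 14 (55587440 to 55591101). Its levels were 22.4, 20.4, 42.1 and 74.8 CPM in LPS p16-positive and 158, 314, 30.0 and 54.7 in LPS p16-negative libraries, and 72.1, 50.5, 51.7 and 64.6 in PBS p16-positive and 0, 16.4, 358 and 53.5 in PBS p16-negative libraries. The 3 highest values all came from p16-negative libraries, and the other p16-negative libraries overlapped with the p16-positive ones. By these levels the p16-positive library was higher in 5 of 8 same-numbered pairs, 3 in PBS and 2 in LPS lungs, and lower in 3. The difference was -1.50 (SE 0.49, interval -2.51 to -0.50, adjusted p = 0.121 by edgeR). It was -0.91 without PBS p16-negative replicate 3, and its adjusted p was 0.0576 with the replicate block.

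In the 3 libraries with high Psme2b the counts of Psme2 were low. Psme2b gave 69.6% (16 of 23 UMIs), 97.8% (44 of 45) and 75.0% (42 of 56) of the UMIs of both genes in LPS p16-negative replicates 1 and 2 and PBS p16-negative replicate 3. In 12 other libraries it gave 0% to 16.7%, and the last, PBS p16-positive replicate 1, had a single UMI. Of the 25-base words of the GENCODE vM21 transcript of Psme2b, 79.5% also occur in Psme2 transcripts (73.2% in its last 300 bases), so both counts are uncertain. The sum of both genes was 330, 286, 312 and 522 CPM in LPS p16-positive, 228, 321, 324 and 510 in LPS p16-negative, 72.1, 303, 413 and 457 in PBS p16-positive and 381, 312, 477 and 464 in PBS p16-negative libraries. Counted as 1 gene, an alternative chosen after seeing the data, the p16 difference was -0.13 (SE 0.31, interval -0.77 to 0.51, adjusted p = 0.975 by edgeR), and 0 of 33 members had an unadjusted p below 0.05.

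**Figure D5:**
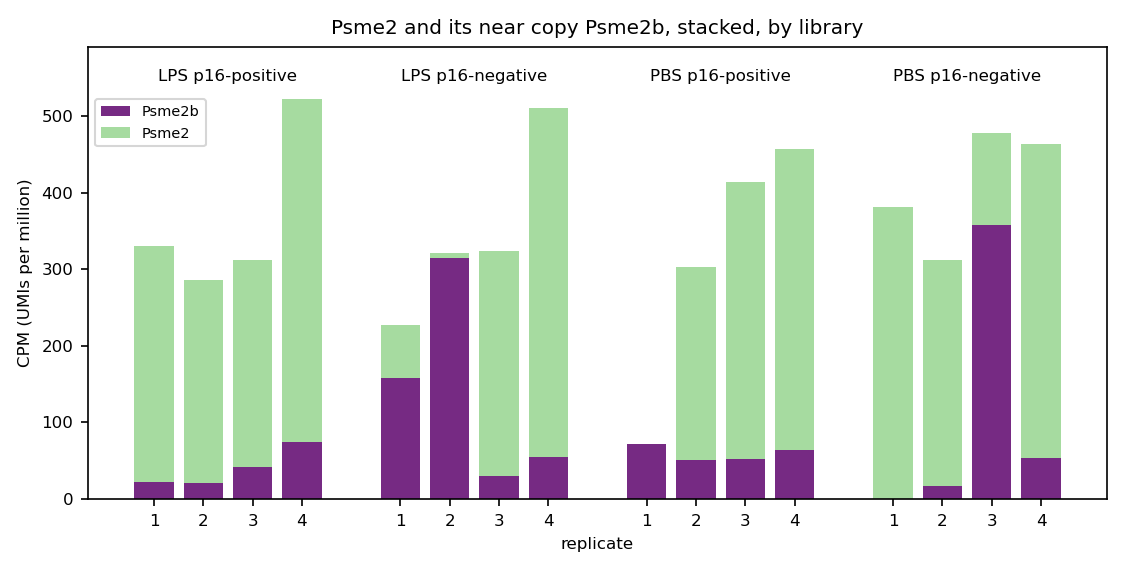
CPM of Psme2b (dark, lower part) and Psme2 (light, upper part), stacked, in each library of the 4 groups. In LPS p16-negative replicates 1 and 2 and PBS p16-negative replicate 3 most of the bar is Psme2b, while the height of the bars, other than the 72.1 of PBS p16-positive replicate 1, lies between 228 and 522.

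Psmg1, a chaperone that starts the assembly of the alpha ring (chromosome 16, 95979933 to 95990960), was next at -1.22 (SE 0.61, interval -2.45 to 0.02, adjusted p = 0.498 by edgeR) on 51 UMIs. It had 5.60, 13.6, 8.42 and 5.95 CPM in LPS p16-positive and 39.6, 64.3, 18.02 and 9.95 in LPS p16-negative libraries, against 72.1, 30.3, 5.17 and 11.5 in PBS p16-positive and 63.5, 0, 17.0 and 22.3 in PBS p16-negative libraries. LPS p16-negative replicates 1 and 2 were high, and the fractions overlapped under both treatments. The p16-positive library was lower in all 4 same-numbered pairs of LPS lungs and in 2 of 4 in PBS lungs, and with the replicate block the difference was -1.14 (adjusted p = 0.296 by edgeR). All 4 LPS pairs were lower for 3 of 34 members (8.82%) and 317 of 6516 genes (4.86%). They were higher for 4 members (11.8%) and 691 genes (10.6%). All 4 PBS pairs were lower for 5 members (14.7%), Psmb3, Psmb5, Psmb6, Psmb10 and Psmg3, and for 324 genes (4.97%). They were higher for 0 members and 631 genes (9.68%). One of the PBS pairs is that of the shallow replicate 1 libraries, and these shares were not tested. The 72.1 and 63.5 of Psmg1 in the PBS replicate 1 libraries are 1 UMI each.

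Psmb3, a noncatalytic beta subunit, gave -0.54 (SE 0.31, interval -1.17 to 0.09, adjusted p = 0.632 by edgeR). It had 196, 167, 92.7 and 156 CPM in LPS p16-positive against 208, 221, 192 and 117 in LPS p16-negative libraries, and 72.1, 152, 145 and 127 in PBS p16-positive against 190, 247, 187 and 281 in PBS p16-negative libraries. In PBS the fractions did not overlap by these levels, although the PBS p16-positive replicate 1 value rests on 1 UMI, and in LPS they did. By the scaling used in the fit the PBS fractions overlapped as well, with 132 in p16-negative replicate 1 against 153 in p16-positive replicates 2 and 3. The share of all genes without overlap was not counted. Psma7 of the alpha ring gave -0.53 (interval -1.23 to 0.17, adjusted p = 0.726). The catalytic genes gave -0.12 for Psmb5 (interval -0.81 to 0.56), -0.16 for Psmb6 (interval -0.77 to 0.46) and -0.37 for Psmb7 (interval -1.40 to 0.67), and the inducible Psmb10 -0.33 (interval -0.97 to 0.31, adjusted p = 0.884 by edgeR). By the levels given above, Psmb10 was lower in the p16-positive library of all 8 same-numbered pairs. It was the only tested member of which this held (2.94%), against 58 of all 6516 tested genes (0.890%), and it was singled out after its values were seen. By the scaling used in the fit the LPS replicate 1 pair went the other way, with 1151 in p16-positive against 1085 in p16-negative cells. The PBS replicate 1 pair rests on 5 and 6 UMIs. With same-numbered libraries as a replicate block the Psmb10 difference was -0.35 (adjusted p = 0.446 by edgeR), which did not pass the test. The activator genes Psme1 and Psme2 gave 0.30 (interval -0.44 to 1.04) and 0.28 (interval -0.60 to 1.17). None of these passed the test.

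By subcomplex, 2 of 4 alpha, 1 of 8 beta, 5 of 8 base and 1 of 5 lid genes had positive fitted values, as did 2 of 4 activators and 2 of 5 chaperones. The beta ring, where 7 of 8 genes were negative, had a median of -0.18 and the base one of 0.04. Of the beta genes, Psmb1, Psmb4, Psmb5 and Psmb6 were positive within LPS lungs, and Psmb2 and Psmb4 within PBS lungs. Over both treatments, again 13 of the 34 intervals lay within 1 log2 unit of 0 and 21 reached beyond. Of the 33 tested genes of the wider system 0 were called, 18 being positive and 15 negative, with 1 at an unadjusted p below 0.05 by edgeR. The inducible Psmb8 and Psmb9 gave -0.01 (interval -0.67 to 0.66) and -0.40 (interval -1.15 to 0.34).

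Within LPS lungs, p16-positive against p16-negative cells gave 0 member calls by edgeR, DESeq2 and voom, with 0 of all genes called by edgeR (0%). There were 2 (5.88%), 2 and 3 (8.82%) members at an unadjusted p below 0.05 by these tools, against 6.83%, 4.39% and 4.99% of all genes, so by edgeR the members' share was near that of all genes. Within PBS lungs there were 0 member calls by each tool and 0, 0 and 1 members at an unadjusted p below 0.05, against 5.54%, 4.02% and 9.21% of all genes, with 0 of all genes called by edgeR (0%). The 2 members by edgeR in LPS lungs, both also among the 4 of lowest p over both treatments, were Psme2b at -1.72 (interval -3.11 to -0.33, adjusted p = 0.408) and Psmg1 at -1.90 (interval -3.53 to -0.27, adjusted p = 0.497), against -1.25 (interval -2.75 to 0.25) and -0.27 (interval -2.14 to 1.60) in PBS lungs. The difference between LPS and PBS lungs was -0.47 for Psme2b (interval -2.50 to 1.55) and -1.63 for Psmg1 (interval -4.14 to 0.88) and did not pass the test. With the replicate block, 147 genes in LPS and 155 in PBS lungs were called, and 0 members in either. Member medians were 0.01 in LPS and -0.13 in PBS lungs, against 0.10 and 0.06 for all genes.

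The median biological coefficient of variation that edgeR estimated was 0.433 for the 34 members and 0.474 for all tested genes, while the median of total UMIs was 390 for members and 141 for all tested genes. The median standard error of the log2 fold change was 0.39 for members in both main comparisons and 0.49 for all genes.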

How the data were processed

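Bulk 3′ libraries of 5000 sorted alveolar macrophages were sequenced for 16 samples. The authors deposited 1 table, built on mm10 with RefSeq annotation by the UTAP pipeline (version not given in the sources used here), that holds UMI counts per gene, normalized and rlog values, and pairwise fold changes and p-values from DESeq2. Only the deposited count columns were used, and the authors' normalized values and comparisons were left out. Replicates of a group were 4 labelled libraries, and in 24 pairs compared by chi-square none had counts within sampling noise.

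Genes with at least 30 UMIs over all libraries were fitted with edgeR 4.0.16 (TMM, quasi-likelihood F test as in earlier releases, R 4.3.3), with treatment and p16 as additive terms for the main comparisons and 4 group means for the others. P-values were adjusted over all 6516 tested genes by the Benjamini-Hochberg method with a threshold of 0.05. Alternatives were other scalings, DESeq2 1.42.0, voom with sample weights (limma 3.58.1), other filters, a replicate block, leaving out libraries, fits of only the libraries compared, edgeR's bias-adjusted mode and Psme2 with Psme2b as 1 gene, the last 2 chosen after seeing the data. Fitted values were named for members past the threshold or, where fewer than 4 passed, the 4 of lowest p, and for Psmb5, Psmb6, Psmb7, Psmb10, Psme1 and Psme2. Members and lists were chosen with earlier results of these data known. The labels number biological replicates 1 to 4 in each group without saying whether libraries with the same number share mice or a batch. Same-numbered p16-positive and p16-negative libraries of a treatment deviated together over genes in all 8 pairs (correlation 0.131 to 0.756), so they were taken as paired. Some libraries of different number correlated more strongly. LPS p16-positive replicate 2 gave 0.319 with p16-negative replicate 1, against 0.243 with replicate 2. PBS p16-positive replicate 4 gave 0.457 with p16-negative replicate 3, against 0.352 with replicate 4. Others ran down to -0.491, so the pairing is uncertain, and the main fits did not use it. Gene coordinates and promoter windows come from RefSeq (GRCm38.p6). The fitting scripts were tested on simulated data.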

Additional observations from a re-analysis of the deposited data

Results flagged for a closer look

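In 76 groups of 4 libraries examined, 11 had a library that stood apart from the other 3, with a gap to the nearest of them beyond Dixon's 95% critical value. Chance marks about 1 in 20 such groups. In PBS p16-positive replicate 1 these were Psmb10 at 361 CPM (others 661 to 687), the inducible share of catalytic UMIs at 88.9% (others 78.7% to 80.1%) and Psme2b at 100% of Psme2 and Psme2b (others 12.5% to 16.7%). These values rest on 5, 9 and 1 UMIs in that order. In PBS p16-negative replicate 1 the flagged values were Psmb6 at 190 (others 343 to 358), on 3 UMIs, and Psmb10 at 381 (others 785 to 822), on 6 UMIs. In PBS p16-negative replicate 3 Psme2b stood at 358 (others 0 to 53.5) and at 75.0% of Psme2 and Psme2b (others 0% to 11.5%). In LPS p16-negative cells Psmb6 stood at 316 in replicate 4 (others 248 to 258), Psmb10 at 769 in replicate 3 (others 971 to 1000) and Psmb10 at 94.7% of Psmb7 and Psmb10 in replicate 4 (others 98.0% to 98.6%). Psmd10 stood at 33.7 in LPS p16-positive replicate 3 (others 3.40 to 7.65), on 4 UMIs.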

How the results depend on the processing

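The count of called members stayed at 0 in all 7 comparisons under every alternative run, and the lowest adjusted p of a member was 0.0576, for p16 with the replicate block. With that block, which pairs p16-positive and p16-negative libraries, all-gene calls for p16 went to 357, against 92 without it, and no member call changed. LPS and PBS libraries shared only a number (5 of 8 correlations above 0.1), and a block there moved all-gene calls to 242, against 60. All-gene calls for p16 were 9 with voom, 21 with filterByExpr, 157 without a filter, 61 with upper-quartile factors, 43 without both PBS replicate 1 libraries and 0 to 284 when leaving out 1 library, with 0 when LPS p16-negative replicate 4 was dropped. For LPS they were 137 with DESeq2, 127 with voom, 92 with the bias-adjusted mode and 29 to 195 when leaving out 1 library. LPS within p16-positive cells gave 23 calls with DESeq2, 36 with voom, 123 with the block and 0 to 90 when leaving out 1 library (90 without LPS p16-positive replicate 2), against 3, and within p16-negative cells 12 with DESeq2, 26 with the block, 7 from its 8 libraries alone and 0 to 5 when leaving out 1 library, against 1. The p16 comparison within LPS lungs gave 50 calls without a filter, 9 in the bias-adjusted mode and 0 to 165 when leaving out 1 library (165 without LPS p16-positive replicate 4), and within PBS lungs 7 from its 8 libraries alone, against 0 in each. With filterByExpr 22 of the 34 members were tested. Psmd10 fell below the count minimum when any of 6 libraries was left out. The LPS difference changed sign for Psmb5 with RLE (-0.025), library totals (-0.13), DESeq2 (-0.028), voom (-0.064), filterByExpr (-0.054) and without both PBS replicate 1 libraries (-0.092). For Psme2 it was -0.020 with RLE, -0.14 with library totals, -0.0050 with DESeq2, -0.44 with voom, -0.055 with filterByExpr and -0.051 without both PBS replicate 1 libraries, and for Psmb6 -0.044 with library totals and -0.014 without both PBS replicate 1 libraries. Leaving out 1 library gave -0.055 to 0.16 for Psmb5 and -0.11 to 0.32 for Psme2 in LPS, and -0.20 to 0.023 for Psmb5 in p16. The cause was not tested.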
